A study of Rattus norvegicus with 6 samples.

Results

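The simple epithelium keratins are 4 genes, Krt7, Krt8, Krt18 and Krt19, taken by symbol from the 34225 loci of the gene count table. Each symbol named 1 row, so the summed counts by which a repeated symbol would have been resolved decided nothing. The set was chosen by gene name but with earlier results of these data known, among them the edgeR fold changes of Krt8 and Krt18 with gefitinib. Their differences from untreated skin are therefore given as a description of their rows in the fit over all genes and are not independent evidence. RNA sequencing covered back skin of Sprague-Dawley rats, an outbred strain, in 6 libraries: 2 from untreated rats, 2 from rats given gefitinib at 80 mg/kg and 2 from rats given afatinib at 30 mg/kg. Both drugs are inhibitors of the epidermal growth factor receptor (EGFR) and were given orally each day up to the appearance of a rash. Doses therefore differ between the drugs, and times may differ. The labels state neither age nor whether a library is 1 rat or a pool, and p-values measure only the spread between these libraries.

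Keratins form intermediate filaments from pairs of a type II and a type I chain. Krt7 and Krt8 are type II keratins, and Krt18 and Krt19 are type I keratins. Krt8 and Krt18 are the main pair of single-layered epithelia such as gut, liver and secretory glands, and each chain is unstable without a partner. In skin they are known from gland cells and Merkel cells, whereas the epidermis itself is built on Krt5 with Krt14 and on Krt1 with Krt10. Krt7 marks glandular and ductal epithelium, and Krt19, a short keratin that nearly lacks a tail, is known from ducts and from the outer root sheath of the hair follicle.

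In the coordinates of the files, for which no source used here names a genome build, Krt8 (ENSRNOG00000009779) lies on chromosome 7 from 143596511 to 143603803 on the minus strand. Krt18 (ENSRNOG00000047393) lies on the same chromosome from 143629455 to 143633131 on the plus strand. It is a type I gene placed in the type II cluster, 25.7 kb from Krt8, and the 1 locus between them had 0 counts. Krt7 (ENSRNOG00000008057) lies at the other end of that cluster, from 143059764 to 143075907. Krt19 (ENSRNOG00000014233) lies in the type I cluster on chromosome 10, from 88055841 to 88060561 on the minus strand. The annotated span of Krt14, from 88055823 to 88122233 on the same strand, contains all of Krt19. Reads there can be assigned to either gene or to neither, and the level of Krt19 is uncertain for that reason. RefSeq lists 6 pseudogenes named after Krt18 and 1 after Krt8, none of which the count table names, so the level of Krt18 is also uncertain where reads match several copies.

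Krt8 and Krt18 point away from each other, and the bases before their annotated starts are shown because these genes are neighbours and changed in the same direction. The sequences are from RefSeq (GRCr8), which held a promoter entry for 2 of the 4 genes. They run 5′ to 3′ on the strand of the gene from 250 bases before the annotated start to 30 bases from the first base of the TATAA match, and capitals mark matches to the motifs searched.
Krt8, chr7:135010414-135010589, minus strand: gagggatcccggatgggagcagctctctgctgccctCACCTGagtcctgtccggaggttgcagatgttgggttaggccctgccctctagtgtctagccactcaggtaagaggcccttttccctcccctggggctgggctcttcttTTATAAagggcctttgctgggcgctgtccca
Krt18, chr7:135035918-135036155, plus strand: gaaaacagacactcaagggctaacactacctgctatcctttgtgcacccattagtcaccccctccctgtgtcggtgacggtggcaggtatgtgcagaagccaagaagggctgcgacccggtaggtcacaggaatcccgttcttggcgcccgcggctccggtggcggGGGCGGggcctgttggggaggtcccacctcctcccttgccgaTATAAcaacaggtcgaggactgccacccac

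For this, 4 motifs were searched on both strands of the 250 bases before the start. TATAA, the core of the TATA box, was found 104 bases before the start of Krt8, with an overlapping match on the opposite strand, and 42 bases before that of Krt18. Of the 33469 RefSeq promoters 24.0% held it. GGGCGG, the GC box bound by Sp1, was found only in Krt18 among these 2 genes, 84 bases before the start, and in 30.5% of all promoters. CAGGTG, an E-box, was found on the opposite strand of Krt8 alone, from 214 bases before the start, and in 15.9% of all promoters. TGANTCA, the AP-1 motif, was in neither window and in 6.34% of all promoters. A match is a description of the letters and not a site of binding.

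Library totals ran from 17206456 to 22086673 counts, and 16398 loci passed the low-count filter, all 4 keratins among them. In edgeR's quasi-likelihood test at an adjusted p of 0.05, 2013 genes rose and 893 fell with gefitinib, or 12.3% and 5.45% of those tested. With afatinib 591 rose and 61 fell, or 3.6% and 0.372%. With scaling by library size only the split for gefitinib was 3071 and 191, and the median log2 fold change of all genes moved from 0.0429 to 0.726 for gefitinib and from 0.0911 to 0.706 for afatinib. The summed level of 12 skeletal muscle genes was 202340 to 218013 CPM in untreated skin (CPM is the count relative to a library size scaled by the trimmed mean of M-values, TMM) and 30164 to 62916 CPM with gefitinib. It was 143001 CPM in afatinib replicate 1 and 32818 CPM in afatinib replicate 2. In whole tissue, fewer cells of a type and less RNA per cell cannot be told apart.

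Krt8, the type II partner of Krt18, was barely detected in untreated skin and was the most abundant of the 4 transcripts with either drug. The untreated libraries held 12 and 19 counts of Krt8, or 0.83 and 1.11 CPM. The gefitinib libraries held 542 and 318 counts, or 21.2 and 13.9 CPM. The afatinib libraries held 117 and 290 counts, or 7.60 and 11.2 CPM. All 4 inhibitor libraries were above both untreated ones, as they were for 27.2% of all genes tested, and the afatinib libraries were both below the gefitinib libraries. Group means were 0.968 ± 0.195 CPM in untreated skin, 17.6 ± 5.18 with gefitinib and 9.39 ± 2.53 with afatinib (SD, n = 2 each).

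With gefitinib Krt8 rose 17.99-fold (95% interval 8.78 to 36.9), a log2 fold change of 4.17 ± 0.441 (SE) with an adjusted p of 0.00971 in edgeR. With afatinib it rose 9.63-fold (4.78 to 19.4), a log2 fold change of 3.27 ± 0.431 with an adjusted p of 0.0257. Relative to the median of all genes the values with library size only were 4.14 and 3.22. The call with gefitinib was lost without untreated replicate 1 (3.98, adjusted p = 0.0911 in edgeR) or untreated replicate 2 (4.40, adjusted p = 0.0809). The call with afatinib was lost without those libraries (3.08 and 3.49, adjusted p = 0.215 and 0.168) and without gefitinib replicate 1 (3.17, adjusted p = 0.0516). It was also lost with limma-voom (3.26, adjusted p = 0.0677) and with only the 4 libraries of the groups compared (3.19, adjusted p = 0.0651). With 1 untreated library left, 10 or fewer genes of the whole table passed with either drug.

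**Figure D1:**
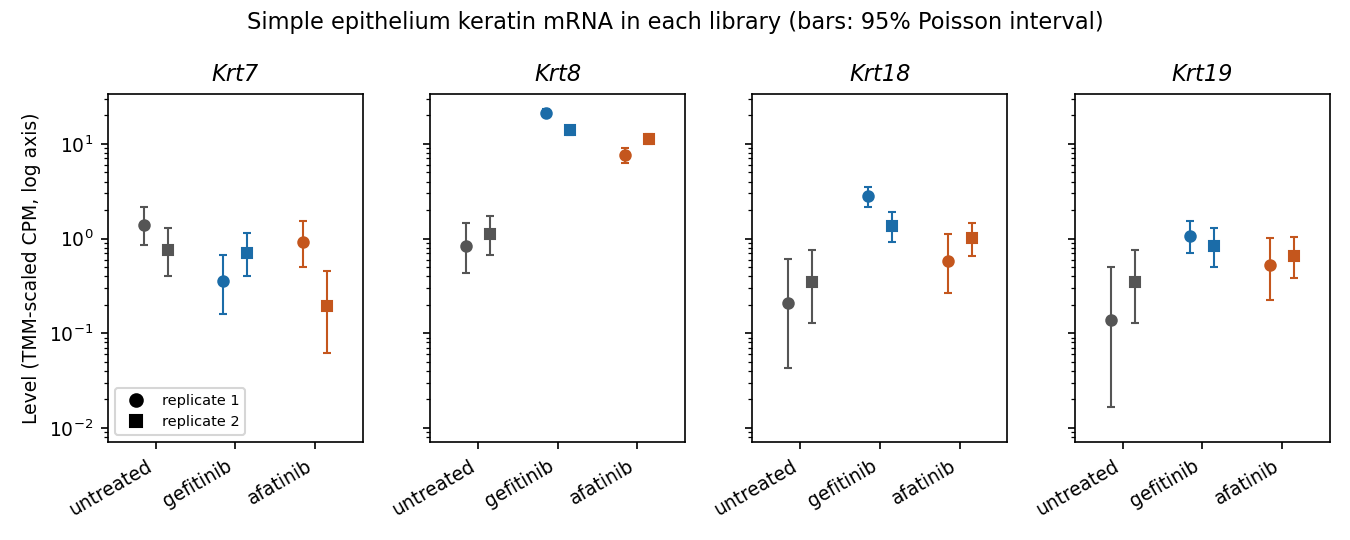
Level of each keratin in every library, in TMM-scaled CPM on a log axis, with circles for replicate 1, squares for replicate 2 and bars for the 95% Poisson interval of the count, which covers counting error only. Krt8 stood at 0.83 and 1.11 CPM in untreated skin and at 7.60 to 21.2 CPM in the inhibitor libraries, whereas Krt7 was highest in untreated replicate 1.

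Krt7, the other type II keratin, did not follow Krt8. It had 20 and 13 counts in the untreated libraries, 9 and 16 with gefitinib, and 14 and 5 with afatinib. These are 1.38 and 0.756 CPM, 0.353 and 0.700 CPM, and 0.910 and 0.193 CPM. Both gefitinib libraries were below both untreated libraries, as for 33.9% of all genes tested, and the afatinib libraries overlapped with the untreated ones. The log2 fold change was −1.01 ± 0.871 with gefitinib (95% interval −3.06 to 1.03, adjusted p = 0.421 in edgeR) and −1.01 ± 0.889 with afatinib (−3.09 to 1.07, adjusted p = 0.537). No change of Krt7 was detected, and both intervals lie below the log2 fold changes of Krt8.

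Krt18, the type I partner of Krt8, was close to the limit of detection in untreated skin. It had 3 and 6 counts there, 71 and 31 with gefitinib, and 9 and 26 with afatinib. On the CPM scale these are 0.207 and 0.349, 2.78 and 1.36, and 0.585 and 1.00. All 4 inhibitor libraries lay above both untreated ones, as for 27.2% of all genes tested, and afatinib replicate 1 lay closest to them. Krt18 rose 7.23-fold with gefitinib (95% interval 2.19 to 23.9), a log2 fold change of 2.85 ± 0.735 with an adjusted p of 0.0397 in edgeR. The ratio of summed counts, scaled by library, was 7.42, with an exact 95% interval of 3.76 to 16.7 for counting error only. With afatinib the log2 fold change was 1.497 ± 0.745 (−0.250 to 3.24, adjusted p = 0.29) and did not pass.

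The gefitinib call of Krt18 was lost when any 1 of the untreated or gefitinib libraries was left out. Without untreated replicate 1 or 2 the log2 fold change was 2.55 or 3.29 (adjusted p = 0.183 and 0.162 in edgeR). Without gefitinib replicate 1 or 2 it was 2.19 or 3.20 (adjusted p = 0.218 and 0.1002). The call was also lost with limma-voom (2.70, adjusted p = 0.0587) and with the replicate number as a block (2.86, adjusted p = 0.0654). The direction was the same in all these fits.

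Krt19, the short type I keratin, was detected at low levels in every group. It had 2 and 6 counts in the untreated libraries, 27 and 19 with gefitinib, and 8 and 17 with afatinib. These are 0.138 and 0.349 CPM, 1.06 and 0.832 CPM, and 0.520 and 0.655 CPM. The groups did not overlap, with untreated lowest and gefitinib highest. All 4 inhibitor libraries were above both untreated ones for 27.2% of all genes, and both afatinib libraries below both gefitinib ones for 19.9%. The log2 fold change was 1.90 ± 0.741 with gefitinib (95% interval 0.166 to 3.64, adjusted p = 0.11 in edgeR) and 1.23 ± 0.758 with afatinib (−0.544 to 3.01, adjusted p = 0.381), and neither passed. Of the 4 keratins 2 rose and 0 fell with gefitinib, beside 12.3% and 5.45% of all genes, and 1 rose and 0 fell with afatinib, beside 3.6% and 0.372%. Since the genes were picked with these changes known, nothing is read from those counts.

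**Figure D2:**
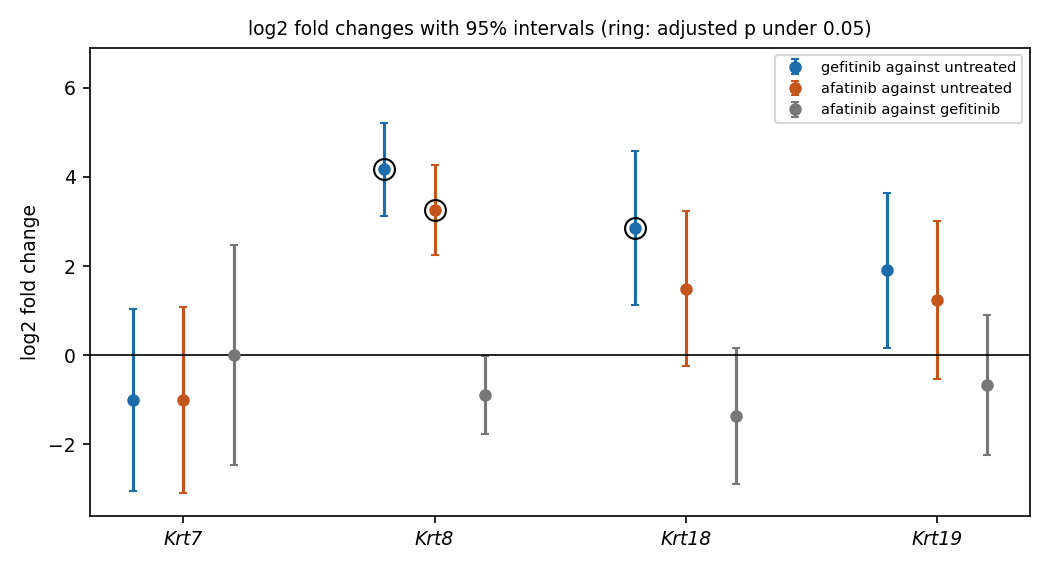
log2 fold change of each keratin in 3 comparisons from the edgeR fit over all genes, with 95% intervals and a ring where the adjusted p is under 0.05. Rings mark Krt8 against untreated with gefitinib (4.17) and afatinib (3.27) and Krt18 with gefitinib (2.85), and no keratin has a ring for afatinib against gefitinib.

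Afatinib skin was set against gefitinib skin in the same fit, with the caution that the doses were 30 and 80 mg/kg. Krt8 was at 9.39 CPM with afatinib and 17.6 CPM with gefitinib, a log2 difference of −0.90 ± 0.373 (95% interval −1.78 to −0.0264, unadjusted p = 0.045, adjusted p = 0.787 in edgeR). Krt18 differed by −1.36 ± 0.653 (−2.89 to 0.173, adjusted p = 0.787), Krt19 by −0.67 ± 0.669 (−2.24 to 0.898, adjusted p = 0.827), and Krt7 by 0.00 ± 1.05 (−2.47 to 2.47). Both afatinib libraries lay below both gefitinib libraries for Krt8, Krt18 and Krt19, as for 19.9% of all genes tested. No keratin passed, and 0 of 16398 genes did in edgeR (0.0%), although 946 genes (5.77%) had an unadjusted p under 0.05. In DESeq2 the number was 28 of the 22290 genes with any count (0.126%), and in limma-voom 0. Those 22290 include genes without an adjusted p in DESeq2, such as Krt19, so this share has another base than that of edgeR. The intervals leave room for a difference of over 2-fold between the drugs in the level of each of the 4 keratins.

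Compared per length, on the FPKM scale, the order of the 4 keratins differed between untreated and inhibitor skin. In untreated skin Krt7 stood at 0.676 and 0.371 FPKM and Krt8 at 0.429 and 0.575, which overlap. Krt18 stood at 0.153 and 0.259 and Krt19 at 0.101 and 0.256, which overlap too. With gefitinib the order was Krt8 (10.6 and 7.11 FPKM), Krt18 (1.98 and 0.988), Krt19 (0.746 and 0.599) and Krt7 (0.167 and 0.338), with no overlap between neighbours. With afatinib Krt8 came first (3.81 and 5.43 FPKM), while Krt18 (0.418 and 0.693), Krt19 (0.367 and 0.449) and Krt7 (0.431 and 0.0884) overlapped.

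The balance between the type II and the type I partner was read within each library, where the scaling between libraries drops out. Krt8 exceeded Krt18 per length by 2.81 and 2.22 times in untreated skin, 5.36 and 7.20 times with gefitinib, and 9.13 and 7.83 times with afatinib. The inhibitor libraries did not overlap with the untreated ones, which rest on 3 and 6 counts of Krt18. The 95% Poisson intervals of those counts were 0.619 to 8.77 and 2.20 to 13.1. With gefitinib the 95% intervals of the log2 fold changes of Krt8 (3.13 to 5.20) and Krt18 (1.13 to 4.58) overlapped. The share of all genes whose ratio to Krt18 lay this way was not counted, and a change of the balance was not tested. Krt8 over Krt7 was 0.635 and 1.55 in untreated skin, 63.8 and 21.0 with gefitinib, and 8.85 and 61.4 with afatinib. Krt18 over Krt19 was 1.52 and 1.01 in untreated skin and 1.14 to 2.66 in the inhibitor libraries, so these groups overlapped.

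The 4 genes were a small part of the keratin transcripts. Of the summed FPKM of 47 keratin genes they took 0.197% and 0.261% in untreated skin, 0.289% and 0.239% with gefitinib, and 0.265% and 0.150% with afatinib, which overlap. The sum itself was 689 and 559 FPKM in untreated skin, 4681 and 3782 with gefitinib, and 1894 and 4437 with afatinib. Krt8 alone took 0.0623% and 0.103% in untreated skin and 0.122% to 0.227% in the inhibitor libraries. It ranked between 22 and 27 among the keratins in every library. The untreated values rest on 12 and 19 counts of Krt8, with 95% Poisson intervals of 6.20 to 21.0 and 11.4 to 29.7. How many keratins had a share that lay this way was not counted.

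Set against Cdh1, Epcam and Tp63, epithelial genes in the same library, Krt8 was higher with the drugs. Its FPKM ratio to Cdh1, which encodes the adhesion molecule E-cadherin, was 0.0641 and 0.0998 in untreated skin, 0.298 and 0.196 with gefitinib, and 0.225 and 0.170 with afatinib. Of the 16397 genes tested besides Cdh1, 2.84% had a ratio to Cdh1 that was higher in all 4 inhibitor libraries than in both untreated ones. The ratio of Krt8 to Epcam, an epithelial adhesion gene, went from 0.0381 and 0.0486 to between 0.102 and 0.161 (3.12% of genes lay this way). Its ratio to Tp63, the master regulator of stratified epithelium, went from 0.0366 and 0.0511 to between 0.155 and 0.266 (5.87% of genes). The untreated ratios rest on 12 and 19 counts of Krt8. Ratios to Grhl3 and Spint1, epithelial genes with log2 fold changes of 3.89 and 3.68 with gefitinib and 3.64 and 3.18 with afatinib, were not taken. What part epithelial content had in the level of Krt8 was not tested.

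Krt18 did not separate the groups in this way relative to Cdh1 and Tp63. Its FPKM ratio to Cdh1 was 0.0228 and 0.0449 in untreated skin, 0.0557 and 0.0272 with gefitinib, and 0.0247 and 0.0218 with afatinib, and its ratio to Tp63 overlapped likewise. Krt8 against the inner root sheath keratin Krt71 was 0.0367 and 0.0117 in untreated skin and 0.0103 to 0.0191 in the inhibitor libraries, which overlap. The annotated span of Krt5, from 143316920 to 143453546, contains all of Krt71 on the same strand. It also contains Krt72, Krt73, Krt2 and Krt1. On chromosome 10 the span of Krt17 contains Krt16 and overlaps that of Krt14, all on the same strand. The levels of all these keratins are uncertain for that reason, as is that of Krt19.

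**Figure D3:**
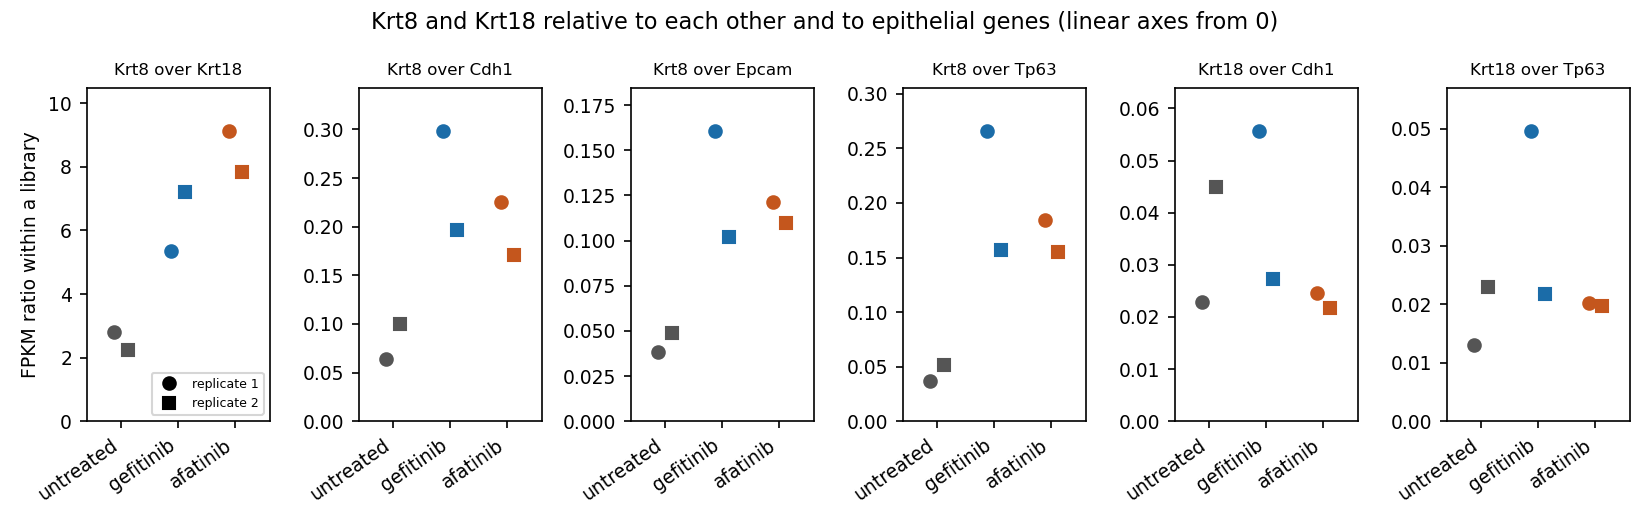
Ratios of FPKM within each library on linear axes that start at 0, with circles for replicate 1 and squares for replicate 2. Krt8 relative to Krt18, Cdh1, Epcam and Tp63 is higher in all 4 inhibitor libraries than in both untreated ones, whereas Krt18 relative to Cdh1 and Tp63 overlaps between the groups.

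Along chromosome 7 the keratins formed a cluster of 24 loci, of which 23 were tested. Of these 16 rose with gefitinib and 6 with afatinib, beside 12.3% and 3.6% of all genes, and 0 fell. The keratins of chromosome 10, where Krt19 lies, did likewise: of 22 tested 13 rose with gefitinib and 10 with afatinib, and 0 fell. Krt8 and Krt18 lie at one edge of the chromosome 7 cluster. Their nearest tested keratin neighbours did not pass: Krt78 had log2 fold changes of −1.20 with gefitinib and 0.17 with afatinib, and Krt79, a keratin of sebaceous ducts, −0.44 and 0.41. Krt76 rose with both drugs (3.58 and 3.42), and Krt77, a type II keratin close to Krt1, stood at −2.13 and −3.23 without passing. Krt7, at the other edge, lies between Krt80 (1.18 and 0.97, not passing) and a block of hair shaft keratins. Of that block Krt86 rose with both drugs, as did Kb23, the locus between Krt86 and Krt85 (7.75 and 6.80). In contrast, Krt83, next to Krt7, and Krt81, Krt82, Krt84 and Krt85 rose with gefitinib and did not pass with afatinib (adjusted p from 0.0511 to 0.0934 in edgeR).

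**Figure D4:**
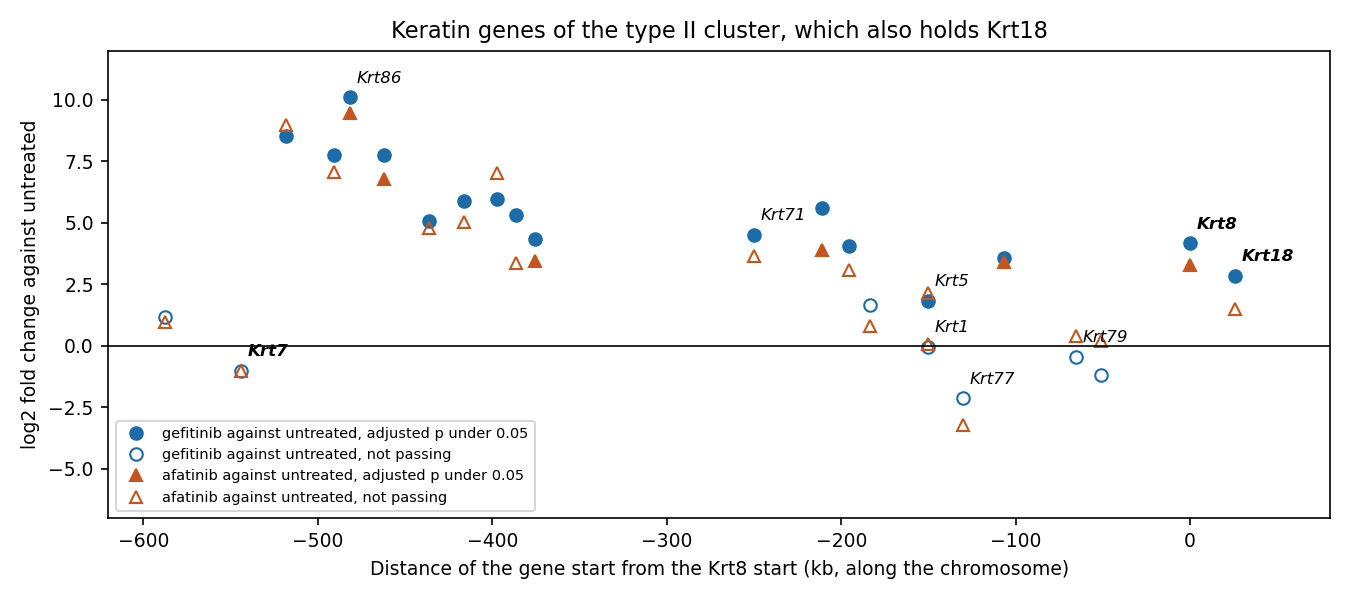
log2 fold change against untreated of the 23 tested keratins of chromosome 7, plotted by the distance of the gene start from that of Krt8 in kb, with filled symbols for an adjusted p under 0.05. Krt8 rose with both drugs and Krt18 with gefitinib beside Krt78 and Krt79, which did not pass, and Krt7 lies below 0 beside the hair keratins; the values of hair keratins with almost no counts in untreated skin depend on the prior count of the fit.

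Other keratins of simple or mucosal epithelia were mostly too low to test. Of 7 such genes 4 were tested, and Krt23, a type I keratin, rose with gefitinib (log2 fold change 5.06) and afatinib (4.09). It had 23 and 15 counts in untreated skin, 1156 and 835 with gefitinib, and 155 and 817 with afatinib. Without 1 gefitinib library 1 gene of the list passed with gefitinib and 0 with afatinib, and without 1 untreated library 0 passed with either drug. Krt80 did not pass. Krt20, the keratin of gut epithelium and Merkel cells, had 9 counts in afatinib replicate 2 and 2 or fewer in each other library. The mucosal pair Krt4 and Krt13 had between 0 and 4 counts in every library.

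Genes of polarised epithelium rose with the drugs. Of 22 genes of adhesion and trafficking 20 were tested, and 17 rose and 0 fell with gefitinib, with a median log2 fold change of 2.80 beside 0.0429 for all genes. With afatinib 9 rose and 0 fell, with a median of 2.10 beside 0.0911. The shares of all genes tested that rose were 12.3% with gefitinib and 3.6% with afatinib. Epcam (2.59 and 1.89), the tight junction gene Cldn4 (3.43 and 2.62), the recycling GTPase gene Rab25 (3.30 and 2.77) and the protease inhibitor gene Spint1 (3.68 and 3.18) rose with gefitinib and afatinib. Leaving out gefitinib replicate 1 or 2 gave 11 and 9 genes higher with gefitinib, and 0 and 0 with afatinib. Without afatinib replicate 1 or 2 the number with afatinib was 16 and 2. Without either untreated library it was 0 for both drugs.

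Of 16 tested epithelial transcription factors 13 rose with gefitinib (median 2.78) and 5 with afatinib (median 2.38), beside 12.3% and 3.6% of all genes, and 0 fell. Among them were Tfap2a (3.32 and 2.53), Ovol1 (3.35 and 2.64) and Grhl3, which is needed for the skin barrier (3.89 and 3.64). Foxa1 and Cdx2, factors of endodermal epithelia, had 0 counts in all 6 libraries. Ehf, Elf3 and Elf5 of the same list rose with gefitinib (4.60, 2.67 and 3.54), and Ehf also with afatinib (5.33). Each had 6 or fewer counts in each untreated library. Spdef stood at −1.27 and −1.97 without passing. Without gefitinib replicate 1 or 2 the number with gefitinib was 6 and 4, and the number with afatinib was 1 in each case. Without afatinib replicate 1 it was 12. Without either untreated library 0 passed with either drug.

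Of 13 tested genes that link keratin filaments to junctions or bind Krt8 and Krt18, 6 rose and 2 fell with gefitinib (median 0.79). With afatinib 2 rose and 0 fell (median 0.464). Among all genes tested 12.3% rose and 5.45% fell with gefitinib, and 3.6% and 0.372% with afatinib. The adaptor gene Sfn (3.01 and 2.78) and the desmosome gene Pkp3 (2.87 and 2.52) rose with both drugs. Dst, a plakin of the hemidesmosome that also has muscle and nerve forms, fell with gefitinib (−1.86). Its log2 fold change with afatinib was −0.68 and did not pass. Without gefitinib replicate 1 or 2 the numbers were 2 and 1 higher and 0 lower with gefitinib, and 0 with afatinib. Without afatinib replicate 1 or 2 the number with afatinib was 6 and 1, and without an untreated library 0 passed with either drug.

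Markers of cell types known to carry Krt8 and Krt18 were sparse. Of 13 Merkel cell genes 4 were tested, and the list summed to 26.4 and 27.5 CPM in untreated skin, 10.5 and 7.35 with gefitinib, and 21.1 and 12.7 with afatinib. Most of that sum was Isl1, with 22.3 and 23.9 CPM in untreated skin, 6.51 and 5.30 with gefitinib, and 18.1 and 6.29 with afatinib. Sox2, a factor of Merkel cells and of the dermal papilla, lay the other way, with 0.277 and 0.931 CPM in untreated skin, 1.999 and 1.27 with gefitinib, and 1.69 and 2.74 with afatinib, and did not pass (log2 fold changes 1.41 and 1.85, adjusted p = 0.188 and 0.186 in edgeR). Chga lay the same way as Isl1, with 28 and 14 counts in untreated skin, 2 and 1 with gefitinib, and 0 and 15 with afatinib. Its log2 fold changes were −4.34 and −2.09 and did not pass (adjusted p = 0.0666 and 0.333 in edgeR). Atoh1, the factor that specifies Merkel cells, had 1 count in untreated replicate 2, 1 in afatinib replicate 2 and 0 elsewhere. Isl1 fell with gefitinib (−1.96), as did 5.45% of all genes tested, and 0 of the 4 rose with either drug in edgeR. With library size only, or without any 1 untreated or gefitinib library, 0 of the list passed with gefitinib. With DESeq2, or without 1 afatinib library, 2 fell. Of 13 gland genes (sweat, salivary, mammary) 3 were tested, and the list summed to 111 and 135 CPM in untreated skin, 52.2 and 45.1 with gefitinib, and 80.4 and 53.5 with afatinib. Nearly all of this was the widely expressed transporter gene Slc12a2, with 108 and 133 CPM in untreated skin, so the sum does not show the other gland genes. The milk protein genes Csn2, Csn3, Lalba and Wap had 0 counts in all libraries, and Slc12a2 fell with gefitinib (−1.40). No gland gene passed with gefitinib with library size only or without any 1 untreated or gefitinib library, and without 1 afatinib library 1 rose and 1 fell. The water channel gene Aqp5 had 1 and 0 counts in untreated skin, 12 and 41 with gefitinib, and 0 and 14 with afatinib, and did not pass (adjusted p = 0.0906 and 0.399 in edgeR).

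Some genes of stratified and follicular epithelium were higher in the inhibitor libraries, as Krt8 was, and their part in its level was not tested. Among all genes tested 12.3% rose and 5.45% fell with gefitinib, and 3.6% and 0.372% with afatinib. Where a list lies near these shares, as the outer root sheath list below does, nothing is read from its counts. Of 9 basal keratinocyte genes 4 rose with gefitinib and 2 with afatinib, with a summed level of 767 to 1300 CPM in untreated skin, 2297 and 2310 with gefitinib, and 2450 and 4118 with afatinib. Of 19 inner root sheath, companion layer and hair shaft keratins 19 rose with gefitinib and 10 with afatinib, and their sum went from 95.4 and 327 CPM to 5880 and 4470 with gefitinib and to 1377 and 4721 with afatinib. Of 11 cell cycle genes 11 rose with gefitinib and 9 with afatinib. Of 12 genes of the outer root sheath and follicle stem cells, where Krt19 is known, 1 rose and 1 fell with gefitinib and 0 passed in edgeR with afatinib, where 3 rose without afatinib replicate 1. With gefitinib 0 rose and 1 fell without gefitinib replicate 1, 0 passed without gefitinib replicate 2, and 3 passed without either afatinib library. Without 1 untreated library no gene of these lists passed with either drug. Without gefitinib replicate 1 or 2 the numbers higher with gefitinib were 0 and 0 for the basal list, 13 and 9 for the hair and sheath keratins and 9 and 8 for the cell cycle genes, and with afatinib 0 for all 3 lists. Without afatinib replicate 1 the numbers with afatinib were 7, 19 and 11, and without afatinib replicate 2 they were 0, 4 and 4.

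The keratins of stressed epidermis, Krt16 (6.41 and 8.05) and Krt17 (3.17 and 2.98), rose with both drugs, and 1 of them passed with gefitinib without gefitinib replicate 2, and 1 with afatinib without either gefitinib library or without afatinib replicate 2. In contrast, 0 of 4 tested suprabasal keratins passed with either, and 1 rose with gefitinib without either afatinib library. Krt16 had 1 and 2 counts in untreated skin, so its log2 fold changes depend on the prior count of the fit. The annotated span of Krt16 lies within that of Krt17, and those of Krt1 and Krt2 within that of Krt5. The levels of these keratins are therefore uncertain. Among all genes tested 12.3% rose and 5.45% fell with gefitinib, and 3.6% and 0.372% with afatinib. Of 12 sebaceous gland genes 3 rose and 1 fell with gefitinib and 0 passed with afatinib. Without gefitinib replicate 1 these were 1 and 1, without gefitinib replicate 2 they were 0, and without either afatinib library 4 and 2. With afatinib 5 rose without afatinib replicate 1, 3 rose with library size only, and 3 rose and 1 fell with DESeq2. Genes of skeletal muscle (2 of 12), smooth muscle (2 of 10) and endothelium (4 of 11) fell with gefitinib, and 1, 0 and 0 of them with afatinib, beside 5.45% and 0.372% of all genes. For gefitinib these counts were 4, 0 and 0 with library size only and 12, 3 and 7 with DESeq2. They were 1, 1 and 8 without gefitinib replicate 1, 1, 0 and 0 without gefitinib replicate 2, and 8, 2 and 5 or 6 without 1 afatinib library. For afatinib they were 3, 1 and 0 with DESeq2, 5, 1 and 0 without afatinib replicate 1, and 0 with library size only, without either gefitinib library or without afatinib replicate 2. Without 1 untreated library no stress keratin, sebaceous, muscle or endothelial gene passed with either drug. None of these lists was tested for its part in the level of Krt8 or Krt18.

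Across the 6 libraries the log2 CPM of Krt8, Krt18 and Krt19 ran together, with Pearson r between 0.932 and 0.954, and that of Krt7 ran against them, with r between −0.71 and −0.67. These values describe 6 libraries that share group differences and depth. By the same measure the genes most like Krt8 were Endou (r = 0.998), Dtymk, Pinlyp, Aknad1 and Atp23. Of 12495 genes compared, 1026 had an r with Krt8 above 0.95, whereas Krt18 (0.932) and Krt19 (0.944) lay below that value. For Krt18, Krt19 and Krt7 the numbers of genes above 0.95 were 269, 421 and 172. Endou, which encodes a ribonuclease, had 5.88 and 7.68 CPM in untreated skin, 39.6 and 30.2 with gefitinib, and 20.3 and 28.6 with afatinib. Krt18 was closest to Pik3r2, H2afy, Tepsin, Cdk4 and Pdia4 (r from 0.991 to 0.999), and Krt19 to Pxylp1, Rai14, Gna12, Hspa4 and Stk11ip (0.993 to 0.998). Krt7 was closest to Car11, Cmc2, Ss18l2, Gamt and Card19 (0.993 to 0.996).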

How the data were processed

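The submitters' processing notes name DESeq2 1.16.1, HISAT2 2.0.5 and featureCounts 1.5.0-p3 without roles, and no source used here names a build, an annotation or a strand setting. In the deposited counts each gene has unnormalized whole numbers. The deposited FPKM values divide these counts by gene length and by a divisor per library that was proportional to the DESeq2 size factor. Columns were assigned to samples by the code in each title. Counts were filtered with filterByExpr, scaled with TMM and fitted with edgeR 4.0.16 (quasi-likelihood, R 4.3.3), 1 term per group over 6 libraries, with two-sided p-values adjusted by Benjamini-Hochberg over all genes tested. SE was derived from the F statistic. The test was checked on simulated counts. FPKM served for levels per length and within-library ratios.

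The members and the 17 gene lists were chosen with earlier results of these data known. Named list genes were up to 3 per list with the smallest p for gefitinib and 2 for afatinib, besides defining markers near 0. Foxa1, Cdx2, Ehf, Elf3, Elf5, Spdef, Krt76, Krt77, Krt79, Krt86, Kb23 and Krt71 were named after their values were seen. For each member the 5 genes of highest correlation (log2 CPM, prior count 2, mean of at least 1 CPM) were named. Alternatives used DESeq2 1.42.0, limma 3.58.1, other scaling and filters, a replicate block and fits without each library.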

Additional observations from a re-analysis of the deposited data

How the results depend on the processing

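All groups hold 2 libraries, and the levels of Krt7, Krt18 and Krt19 rest on 2 to 71 counts a library, so depth limits what could be detected. Against untreated skin the sign of every keratin's log2 fold change was the same in all alternatives that could be fitted. Under a filter at a mean of 1 CPM Krt7 and Krt19 were not tested. Krt19 was also not tested for afatinib against untreated with only the 4 libraries of those groups. Krt8 lost its call with afatinib under limma-voom (3.26, adjusted p = 0.0677) and with only the 4 libraries of the groups compared (3.19, adjusted p = 0.0651), and Krt18 its call with gefitinib under limma-voom (2.70) and the replicate block (2.86). On the log2(FPKM + 1) scale, which shrinks low levels, Krt8 stood at 2.69 with gefitinib and 1.89 with afatinib and passed, and Krt18 at 1.02 with gefitinib and passed. Leaving out 1 library gave 3.78 to 4.40 for Krt8 and 2.19 to 3.29 for Krt18 with gefitinib, and 2.90 to 3.51 for Krt8 with afatinib. For afatinib against gefitinib the log2 difference of Krt7, 0.00 in the report, was −0.0199 with DESeq2 size factors, −0.20 with library size only, −0.36 with limma-voom, −0.0044 with no filter, −0.22 with the replicate block, −0.0018 on log2(FPKM + 1), −0.11 on log2(FPKM + 0.1) and −1.42 to 0.80 without 1 library; none passed.

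The number of genes called with gefitinib, 2906, was 4510 with DESeq2, 4550 with no filter, 5286 with only the 4 libraries compared and 0 to 5320 without 1 library. With afatinib, 652 became 1281 with library size only, 1945 with DESeq2, 34 with limma-voom, 2083 with no filter, 51 with only the 4 libraries compared, 369 with the replicate block, 194 on log2(FPKM + 1) and 0 to 3653 without 1 library. For afatinib against gefitinib, 0 became 1 with library size only, 28 with DESeq2, 28 with no filter and 0 to 3 without 1 library. The cause of these shifts was not tested. Libraries that share a replicate number did not deviate together (r from −0.174 to 0.0374), so the replicate block pairs numbers only.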

Other observations

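Among 6 mesothelial genes, included because mesothelium carries Krt8, Krt18 and Krt19, 2 were tested and they moved in opposite directions. Msln, the mesothelin gene, had 74 and 64 counts in untreated skin, 14 and 8 with gefitinib, and 12 and 13 with afatinib, and fell with gefitinib (log2 fold change −3.27, adjusted p = 0.0159 in edgeR) and afatinib (−2.80, adjusted p = 0.0456). Upk1b, a uroplakin gene of the urothelium, had 20 and 24 counts in untreated skin, 258 and 209 with gefitinib, and 69 and 193 with afatinib, and rose with both (2.79 and 2.10, adjusted p = 0.0129 and 0.0439 in edgeR). Without 1 untreated library, or gefitinib replicate 2, neither passed with gefitinib, and without gefitinib replicate 1 only 1 gene passed. With afatinib neither passed without 1 untreated or gefitinib library or without afatinib replicate 2, and with library size only 1 gene rose. Wt1, which marks mesothelium, had 0 counts in all 6 libraries.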
